A study of Rattus norvegicus with 12 samples.

Results

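The comparison of BF with BA rats asked which liver transcripts differ when bile acids (BA) are returned to the intestine of rats whose bile is drained to the outside, before and after partial hepatectomy (PH). It used 8 of the 12 samples of the series, 4 from BF rats and 4 from BA rats, paired at 0, 4, 12 and 24 h after PH. Genes were chosen when their level differed in the same direction at all 4 times and by at least 2-fold at 3 or more of them. The rule was applied to the 8459 genes whose level averaged 1 RPKM or more across the 12 columns. Of these 8 met it, 3 higher in BF (0.0355% of the genes) and 5 lower (0.0591%).

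All groups were male Sprague Dawley rats of 4 to 5 months, and the RNA came from whole liver. BF rats had a biliary fistula, which drains all bile, from 24 h before PH. BA rats carried the same fistula and received sodium taurocholate, a conjugated bile acid, by infusion into the duodenum. This infusion began before PH and so was under way at 0 h. Rats of all groups had a duodenal catheter with a continuous infusion of saline. Control rats, labelled Cont, had a sham operation 24 h before PH, and their 4 samples are used only for their levels. The group names follow the sample titles, which match the columns of the table. The sample descriptions exchange BF and BA, and if those are right every direction given here is reversed.

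Values are RPKM, reads divided by transcript length and by the total reads of the library. Each column is the authors' combination of 1 sequencing run on a single rat and another on pooled RNA of 3 rats, so 1 value per group and time exists, without a spread between rats, and the depth of each sample is unknown. The spread given below is therefore the SD of the log2 ratio over the 4 times. Ratios are log2 of BF over BA after 1 RPKM was added to each value, which understates changes of genes at low levels. In whole liver, a lower level from fewer cells of a type and from less RNA per cell cannot be told apart.

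A pair of columns stood apart from the rest. In BA at 4 h ALB, the gene of serum albumin, took 30.9% of all RPKM, against 5.60% to 13.4% in the other 11 columns, and the 10 most abundant genes took 53.2%, against 29.4% to 41.0%. In BF at 12 h 19 of 23 pancreatic acinar cell markers were at their highest, with a summed level of 186 RPKM against 7.07 to 29.6 RPKM elsewhere and CTRB1, a digestive protease precursor, at 84.7 RPKM. None of the 8 genes is a marker of that list, and the part of both columns in the results was not tested. Without the 4 h pair the mean log2 ratio of FABP4 was -1.13 in place of -1.62, and without the 12 h pair that of CYP7A1 was 2.48 in place of 3.12. The summed level of the hepatocyte markers, a list that includes ALB, was 377884 RPKM in BA at 4 h, of which ALB made 303637 RPKM. In the other 11 columns it was 117977 to 167952 RPKM.

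Bile acids are made in hepatocytes from cholesterol, secreted into bile, and taken back from the ileum to the liver in the enterohepatic circulation. Returning bile acids activate the nuclear receptor FXR, encoded by NR1H4, in liver and ileum. FXR acts through the repressor SHP, encoded by NR0B2, and through an intestinal hormone to lower the transcription of the enzymes of synthesis. CYP7A1 encodes the rate-limiting enzyme of the classic pathway, and CYP8B1 the 12-alpha-hydroxylase that decides how much cholic acid is made.

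Windows of 250 bases upstream of the transcription start were matched in RefSeq (GRCr8) for 5 of the 8 genes, and CYP7A1, FABP4 and NIACR1 were not matched. The windows of 3 of the 5 matched genes are shown. The sequence ahead of genes higher in BF (AKR1B7 and CYP8B1) can so be read beside that of a gene lower in BF (PSAT1). The windows of NPY and TNFRSF21, also lower in BF, are not printed. Capitals mark matches, on either strand, to the 6 motifs searched: AGGTCA (nuclear receptor half-site), CAAGGTCA (extended half-site bound by NR5A2), TCACNCCAC (sterol regulatory element), TGACNNNGC (antioxidant response element core), CCAAT (NF-Y) and CACGTG (E-box). The second of these contains the first. AKR1B7 lies on chromosome 4 (chr4:64043720-64043969, plus strand), CYP8B1 on chromosome 8 (chr8:130457593-130457842, minus strand) and PSAT1 on chromosome 1 (chr1:222645409-222645658, minus strand).
AKR1B7: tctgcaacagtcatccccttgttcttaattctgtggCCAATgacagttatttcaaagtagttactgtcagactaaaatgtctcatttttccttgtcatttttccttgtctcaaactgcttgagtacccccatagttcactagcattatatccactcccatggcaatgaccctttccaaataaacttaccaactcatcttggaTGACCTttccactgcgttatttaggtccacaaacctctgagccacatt
CYP8B1: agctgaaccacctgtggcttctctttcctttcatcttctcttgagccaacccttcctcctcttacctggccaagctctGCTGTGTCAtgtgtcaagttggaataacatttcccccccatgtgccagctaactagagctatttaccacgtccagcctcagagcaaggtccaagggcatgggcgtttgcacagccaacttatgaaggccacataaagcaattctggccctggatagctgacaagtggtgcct
PSAT1: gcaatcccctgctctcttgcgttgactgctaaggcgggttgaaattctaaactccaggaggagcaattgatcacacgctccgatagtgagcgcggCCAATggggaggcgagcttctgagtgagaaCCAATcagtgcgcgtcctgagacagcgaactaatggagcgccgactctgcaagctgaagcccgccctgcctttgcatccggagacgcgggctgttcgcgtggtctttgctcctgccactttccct

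AGGTCA was found in the window of AKR1B7, with its first base at -48 from the start, and in 751 of the 6844 windows matched to the genes tested. TGACNNNGC was found in that of CYP8B1, with its first base at -172, and in 13.2% of windows. CCAAT occurred in the windows of AKR1B7, PSAT1 and NPY and in 37.0% of windows. The window of TNFRSF21 held none of the 6 motifs. CAAGGTCA, TCACNCCAC and CACGTG were in none of the 5 windows and in 0.701%, 1.01% and 8.61% of all windows. The matches describe these letters only and say nothing of binding.

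CYP7A1, CYP8B1 and AKR1B7 were higher in BF than in BA by at least 2-fold at each of the 4 times. CYP7A1 was at 387, 13.8, 136 and 334 RPKM in BF at 0, 4, 12 and 24 h. In BA it was at 54.9, 1.81, 3.17 and 68.8 RPKM. Control had 60.0, 4.59, 8.53 and 57.3 RPKM. All 3 groups had their lowest CYP7A1 at 4 h after PH, and at each time the highest value was in BF. The levels of BF and BA overlapped across times, since BF at 4 h lay below BA at 0 h. The BF to BA ratio was 7.05-fold at 0 h, 7.62-fold at 4 h, 42.9-fold at 12 h and 4.86-fold at 24 h on the RPKM scale. The 12 h ratio set BF, already back at 136 RPKM, against BA still at 3.17 RPKM. Over the 4 times the log2 ratio averaged 3.12 ± 1.30 (SD).

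CYP8B1 was at 1576, 919, 767 and 1009.8 RPKM in BF at 0, 4, 12 and 24 h. BA had 110.2, 161, 119 and 189.7 RPKM, and Control had 136, 164.5, 135 and 171 RPKM. No BF column overlapped with any BA column. The ratio of BF to BA was 14.3-fold at 0 h, 5.69-fold at 4 h, 6.45-fold at 12 h and 5.32-fold at 24 h, with a mean log2 ratio of 2.85 ± 0.66 (SD over 4 times). Unlike CYP7A1, CYP8B1 did not drop to a low level at 4 h in any group. Its log2 ratio of 4 h to 0 h was -0.78 in BF and 0.55 in BA, whereas that of CYP7A1 was -4.71 in BF and -4.31 in BA.

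AKR1B7 encodes an aldo-keto reductase that reduces aldehydes from lipids. It was at 25.8, 38.6, 38.2 and 247 RPKM in BF at 0, 4, 12 and 24 h. BA had 0.95, 5.59, 3.34 and 37.2 RPKM. Control had 0.21, 0.55, 1.60 and 63.2 RPKM. The 24 h column was the highest in all 3 groups, and the groups overlapped across times because BA at 24 h exceeded BF at 0 h. At each single time BF was highest, by 27.2-fold over BA at 0 h and by 6.64-fold at 24 h. Its log2 ratio averaged 3.06 ± 0.54 (SD over 4 times). Its close relatives AKR1B8 (0.27 to 2.01 RPKM) and AKR1B10 (0.04 to 0.53 RPKM) stayed at low levels in the 12 columns. How reads shared with these copies were assigned is not given in the sources used here, so the level of AKR1B7 is uncertain to that extent.

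**Figure D1:**
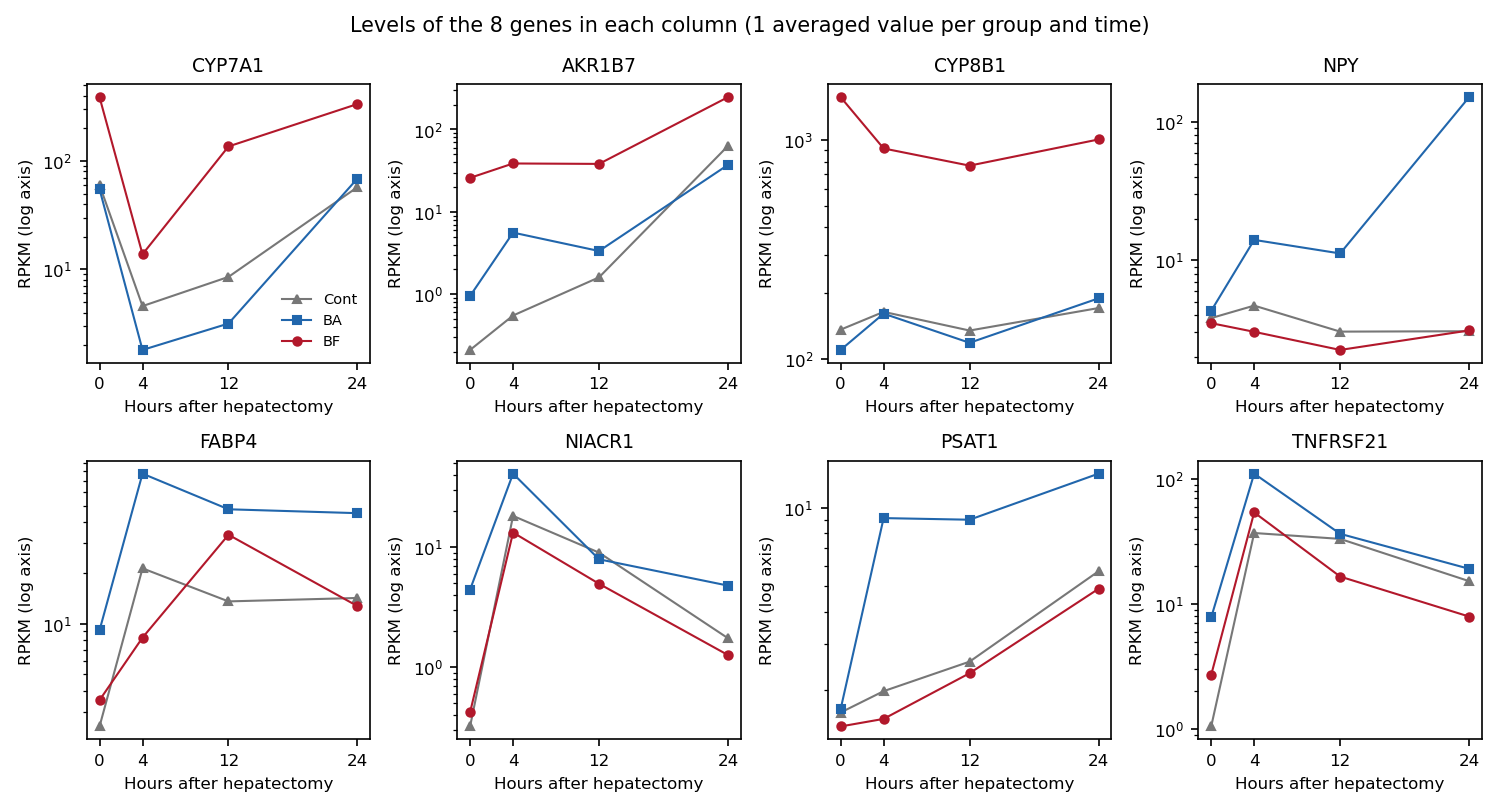
Levels of the 8 genes in RPKM (log axis) against hours after hepatectomy, 1 panel per gene, with 1 averaged value per group and time for BF (red circles), BA (blue squares) and Control (grey triangles) and no error bars because the columns hold no spread between rats. CYP7A1, AKR1B7 and CYP8B1 are highest in BF at every time, and in the other 5 panels BF lies below BA at every time.

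The 5 genes lower in BF encode a secreted peptide, a pair of receptors, a fatty acid carrier and an enzyme. NPY encodes neuropeptide Y, a peptide transmitter of neurons. It stayed between 2.24 and 3.50 RPKM in BF and between 3.04 and 4.69 RPKM in Control. In BA it was at 4.30, 14.0, 11.2 and 151.6 RPKM at 0, 4, 12 and 24 h. The highest value by far was that of BA at 24 h. The log2 ratio was -0.24 at 0 h, -1.90 at 4 h, -1.91 at 12 h and -5.22 at 24 h, so the 0 h values were close and the mean of -2.32 had an SD of 2.09 over the 4 times. Without the 24 h pair the mean was -1.35. BF and BA did not overlap across times.

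TNFRSF21, a death receptor of the TNF receptor family, had the steadiest difference of the 8 genes. It was at 2.71, 54.0, 16.6 and 7.94 RPKM in BF at 0, 4, 12 and 24 h. In BA it was at 7.81, 110.3, 36.4 and 19.1 RPKM, and in Control at 1.05, 37.0, 33.2 and 15.2 RPKM. All groups had their highest value at 4 h, with BA about the same factor above BF at each time. The ratio of BA to BF lay between 2.04-fold at 4 h and 2.88-fold at 0 h, and the mean log2 ratio was -1.13 ± 0.10 (SD over 4 times). BF was above Control at 0 and 4 h and below it at 12 and 24 h.

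NIACR1, the receptor for niacin and for the ketone body beta-hydroxybutyrate, was at 0.42, 13.2, 4.95 and 1.26 RPKM in BF at 0, 4, 12 and 24 h. BA had 4.43, 41.0, 7.92 and 4.78 RPKM, and Control had 0.32, 18.2, 9.0 and 1.74 RPKM. Like TNFRSF21 it was highest at 4 h in all groups, and at 12 h the ratio of BA to BF was 1.60-fold. The mean log2 ratio was -1.36 ± 0.57 (SD over 4 times).

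FABP4, a fatty acid carrier of adipocytes and macrophages, was at 3.52, 8.26, 33.6 and 12.7 RPKM in BF at 0, 4, 12 and 24 h. BA had 9.13, 77.3, 47.6 and 45.1 RPKM, and Control had 2.46, 21.3, 13.5 and 14.2 RPKM. The highest BA value was at 4 h and the highest BF value at 12 h, and at 12 h the ratio of BA to BF was 1.42-fold. The mean log2 ratio was -1.62 ± 1.10 (SD over 4 times). The other 8 muscle and adipose markers in the table summed to 0.62 to 1.19 RPKM in BA, 0.52 to 1.96 RPKM in BF and 1.09 to 2.99 RPKM in Control. At 4 h, where FABP4 differed most, they summed to 0.77 RPKM in BA, 0.52 RPKM in BF and 2.99 RPKM in Control, and their part in the result was not tested. The adipocyte hormone ADIPOQ was at most 2.03 RPKM, in Control at 4 h. The 9 Kupffer cell and macrophage markers summed to 229 to 317 RPKM in BA, 242 to 343 RPKM in BF and 224 to 347 RPKM in Control.

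PSAT1, which catalyses the second step of serine synthesis, was at 1.45, 1.55, 2.32 and 4.89 RPKM in BF at 0, 4, 12 and 24 h. BA had 1.69, 9.13, 9.0 and 13.5 RPKM, and Control had 1.64, 1.98, 2.57 and 5.71 RPKM. The groups were close at 0 h, before PH, and BA was above the others at the 3 times after it. The log2 ratio was -0.13 at 0 h, -1.99 at 4 h, -1.59 at 12 h and -1.30 at 24 h, and the mean was -1.25 ± 0.80 (SD over 4 times).

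Ratios to Control share the BF or BA columns with the comparison above, so they are given side by side only. For the genes higher in BF, the mean log2 ratio of BF to Control was 2.61 for CYP7A1, 2.76 for CYP8B1 and 3.75 for AKR1B7. The mean log2 ratio of BA to Control was -0.51, -0.09 and 0.69 for the same genes in that order. For the genes lower in BF, the mean log2 ratio of BA to Control was 2.09 for NPY, 1.68 for FABP4, 1.02 for NIACR1, 1.10 for PSAT1 and 1.02 for TNFRSF21. The mean log2 ratio of BF to Control was -0.22, 0.06, -0.34, -0.16 and -0.11 for these genes in that order. On these means BF lay further from Control than BA for the first 3 genes, and BA lay further than BF for the other 5. At single times this order did not always hold for the other 5. For TNFRSF21 the log2 ratio to Control at 0, 4, 12 and 24 h was 0.86, 0.53, -0.96 and -0.86 in BF. In BA it was 2.10, 1.55, 0.13 and 0.31, so BF lay further at 12 and 24 h. At 12 h NIACR1 was at -0.75 in BF and -0.16 in BA. At 0 h PSAT1 was at -0.11 in BF and 0.03 in BA. The FABP4 mean of 0.06 in BF came from 0.39, -1.26, 1.25 and -0.15.

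The 2-fold limit fell within a series of closely spaced genes. The third-largest size among the 4 log2 ratios, which decides membership, was 1.09 for TNFRSF21, 1.16 for FABP4 and 1.30 for PSAT1, the members nearest the limit. Just outside it were CYP7B1 at 0.997, CTH at 0.99 and CAR5A at 0.91. All 3 genes just outside were higher in BF at all 4 times. CYP7B1 belongs to the alternative pathway of bile acid synthesis, CTH makes cysteine from cystathionine, and CAR5A is a mitochondrial carbonic anhydrase. CTH was at 756, 199.8, 121 and 544 RPKM in BF and at 379.8, 75.6, 61.6 and 254 RPKM in BA at 0, 4, 12 and 24 h. Control had 1029, 392, 62.9 and 772 RPKM, above BF at 0, 4 and 24 h. At exactly 2 of the 4 times 22 of the 8459 genes, with a single sign, were at least 2-fold apart. Of these 12 were higher in BF, CYP7B1 and CTH among them, and 10 were lower.

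Differences in a single direction at all 4 times were common, and large ones were not. Of the 8459 genes, 860 were higher in BF at all 4 times (10.2%) and 551 lower (6.51%), and 1252 of these were under 2-fold at every time. With each column rescaled on its median gene the counts were 828 (9.79%) and 679 (8.03%). At single times, genes at least 2-fold higher in BF were 36 at 0 h (0.426%), 202 at 4 h (2.39%), 98 at 12 h (1.16%) and 75 at 24 h (0.887%). Genes at least 2-fold lower were 118 at 0 h (1.39%), 197 at 4 h (2.33%), 64 at 12 h (0.757%) and 82 at 24 h (0.969%). The median log2 ratio of all genes tested was -0.08, 0.15, -0.01 and 0.06 at the 4 times.

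The mean BF to BA difference over the 4 times was tested for each gene with limma, with time as a block. Its error is the variation of the BF to BA difference over the 4 times and not the variation between rats. At a Benjamini-Hochberg adjusted p under 0.05, 2 genes were higher in BF (0.0236%) and 1 was lower (0.0118%). These were AKR1B7 (adjusted p = 0.0145 by limma), CYP8B1 (adjusted p = 0.0299) and TNFRSF21 (adjusted p = 0.0299), all members by the rule above, so that the test gives no independent support for their choice. The unadjusted limma p was under 0.05 for 642 genes, 426 higher in BF (5.04%) and 216 lower (2.55%). CYP7A1, with the largest mean ratio, had an adjusted p of 0.194 by limma with a moderated SE of 0.44 on the log2 scale. The remaining members had limma adjusted p-values of 0.273 (NIACR1), 0.539 (PSAT1), 0.542 (FABP4) and 0.542 (NPY). No call held under every alternative. Over the alternative settings of the paired fit the adjusted p by limma ranged from 0.00136 to 0.416 for AKR1B7, from 0.0130 to 0.514 for CYP8B1, from 0.0152 to 0.379 for TNFRSF21 and from 0.0195 to 0.695 for CYP7A1. With all 12 columns in the fit it was 0.109 for AKR1B7, 0.00185 for CYP8B1 and 0.448 for TNFRSF21.

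**Figure D2:**
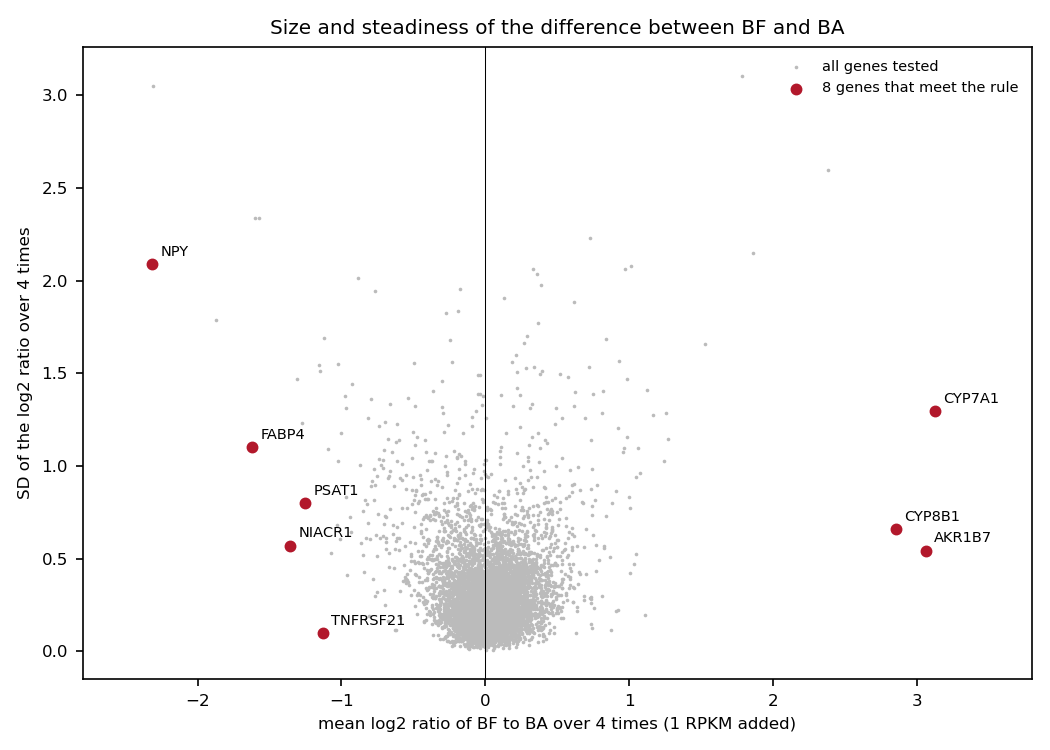
Mean log2 ratio of BF to BA over 4 times (horizontal) against the SD of that ratio over the 4 times (vertical) for the 8459 genes tested (grey points), with the 8 genes that meet the rule in red. AKR1B7 (3.06, SD 0.54) and CYP8B1 (2.85, SD 0.66) combine a large mean with a small spread, TNFRSF21 (-1.13, SD 0.10) has the smallest spread of the 8, and NPY (-2.32, SD 2.09) the largest.

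Of 18 genes listed for bile acid synthesis, 15 were expressed. Of the 15, 7 were higher in BF at all 4 times and 0 were lower, beside 10.2% and 6.51% of all genes. The 7 include CYP7A1 and CYP8B1, which the rule had chosen on these same values, so their place in the count was fixed in advance. The median log2 ratio of the list was 0.30, 0.20, 0.56 and 0.37 at 0, 4, 12 and 24 h. With rescaled columns 6 were higher at all 4 times, and the 4 h median was 0.06. The 3 largest mean ratios of the list belonged to hydroxylases, CYP7A1, CYP8B1 and CYP7B1. CYP27A1, which starts the alternative pathway, was at 362, 263, 127 and 206 RPKM in BF and at 223, 171, 90.3 and 126 RPKM in BA at 0, 4, 12 and 24 h. Its mean log2 ratio was 0.63 ± 0.10 (SD over 4 times), with an adjusted p of 0.273 by limma. CYP7B1, the next enzyme of that pathway, was at 35.3, 23.3, 65.5 and 21.7 RPKM in BF and at 17.2, 17.4, 19.6 and 9.69 RPKM in BA. The levels of CYP7B1 in BF and BA did not overlap across times, and the mean log2 ratio was 1.05 ± 0.53 (adjusted p = 0.327 by limma). AKR1D1, which reduces the steroid ring, was higher in BF at 0, 12 and 24 h (log2 ratios 0.86, 1.45 and 1.23) and lower at 4 h (-0.19). AMACR, a racemase of the side-chain pathway in peroxisomes, differed chiefly at 12 h, with a log2 ratio of 1.44 against 0.12 to 0.17 at the other times. BAAT, which joins bile acids to taurine or glycine, was lower in BF at 0 and 4 h (-0.43 and -1.08) and higher at 12 and 24 h (0.56 and 0.37). The list passed the limma threshold for 1 gene (CYP8B1). An unadjusted limma p was under 0.05 for 7 of its 15 genes, CYP7A1 and CYP8B1 among them, beside 642 of the 8459 tested.

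**Figure D3:**
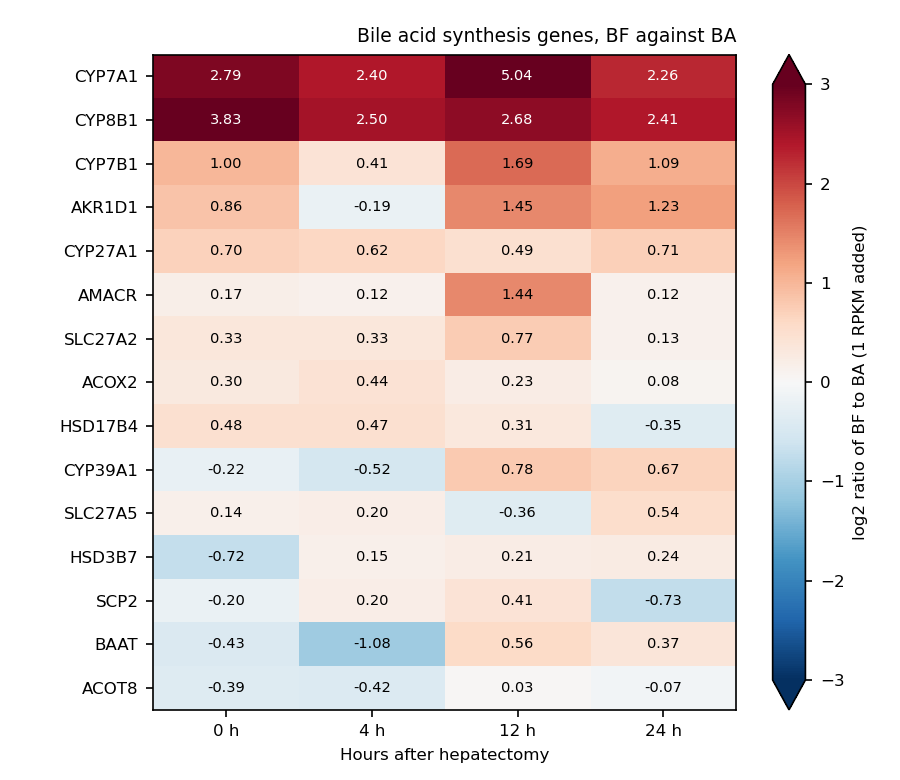
log2 ratio of BF to BA (1 RPKM added, colour and number) for the 15 expressed genes of bile acid synthesis in rows and the 4 times in columns, 1 averaged value per group and time. CYP7A1 and CYP8B1 are above 2 at every time, and the genes of the lower rows change sign between times.

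Genes that sense and carry bile acids were read from a pair of lists. Among 12 expressed genes of sensing and feedback, 1 was higher in BF at all 4 times (8.33%, near the 10.2% of all genes) and 0 were lower (6.51% of all genes). That gene was NR1H4, with log2 ratios of 0.14, 0.76, 0.44 and 0.31 (mean 0.41 ± 0.26, SD over 4 times; adjusted p = 0.542 by limma). NR0B2 was at 20.2, 1.45, 1.21 and 10.4 RPKM in BF and at 12.7, 1.85, 0.36 and 5.38 RPKM in BA at 0, 4, 12 and 24 h. Control was above both at 0, 4 and 24 h, with 42.3, 10.6 and 30.2 RPKM. FGF21, a liver hormone of fasting, had log2 ratios of -0.07, 0.93, -1.01 and -1.74. Of 14 expressed transporters, 3 were higher at all 4 times (21.4%) and 1 was lower (7.14%). SLCO1B2, an uptake carrier of the sinusoidal membrane, had a mean log2 ratio of 0.45 ± 0.24 (SD over 4 times; adjusted p = 0.542 by limma). ABCB4, which exports phosphatidylcholine into bile, was higher in BF at 0, 4 and 12 h (0.38, 1.10 and 0.79) and lower at 24 h (-0.42).

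PSAT1 was read within a list of ER stress and ATF4 response genes. Some of these the transcription factor ATF4 is known to raise when amino acids are scarce. In the list 5, 11, 12 and 9 of 20 genes were higher in BF at 0, 4, 12 and 24 h. Of all 8459 genes, 3196, 5711, 4028 and 5245 were higher at these times. The list's median log2 ratio lay between -0.18 and 0.04. Of its 20 expressed genes, 2 were lower in BF at all 4 times (10%, beside 6.51% of all genes). Higher at all 4 times were 0 (10.2% of all genes). One of the 2 was PSAT1, which the rule had chosen on these same values, so its place in the count was fixed in advance. The second gene was MTHFD2, a mitochondrial enzyme of folate metabolism, with log2 ratios of -0.62, -1.80, -1.14 and -0.75 (mean -1.08 ± 0.53, SD over 4 times; adjusted p = 0.323 by limma). PHGDH, the first enzyme of serine synthesis, was close at 0 h (0.07) and lower in BF afterwards (-0.92, -1.40 and -1.52). ASNS, asparagine synthetase, was higher in BF at 0 h (0.90) and lower afterwards (-1.14, -1.09 and -1.50). ASNS was at 4.65, 6.03 and 2.00 RPKM in BF against 11.4, 13.9 and 7.46 RPKM in BA at 4, 12 and 24 h. The list held 0 genes past the adjusted limma threshold. At an unadjusted limma p under 0.05 were 3 of 20, PSAT1 among them, beside 642 of the 8459 tested.

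Genes of amino acid breakdown and the urea cycle were the next list. Of 37 expressed genes 13 were higher in BF at all 4 times (35.1%, beside 10.2% of all genes) and 0 were lower (6.51% of all genes). The median log2 ratio was 0.36 at 0 h, 0.46 at 4 h and 0.32 at 24 h, and -0.02 at 12 h. CTH had the largest mean, 1.11 ± 0.20 (SD over 4 times), with an adjusted p of 0.0623 by limma. BHMT, which remethylates homocysteine with betaine, was at 857, 1471 and 299 RPKM in BF against 302, 435 and 100.5 RPKM in BA at 0, 4 and 24 h. At 12 h the order was the reverse, with 52.0 RPKM in BF and 77.9 RPKM in BA. HAL, which breaks down histidine, differed chiefly at 4 h (356 against 49.7 RPKM). Control had 843, 1728, 223 and 289 RPKM of BHMT at 0, 4, 12 and 24 h. With rescaled columns 11 of the 37 were higher at all 4 times and 1 was lower, beside 9.79% and 8.03% of all genes. The list held 0 genes past the adjusted limma threshold and 15 of 37 at an unadjusted p under 0.05, beside 642 of the 8459 tested. The 12 h column of BF, with its pancreatic markers, is also the column in which this list showed no difference, and its part there was not tested.

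Genes that conjugate and reduce steroids and foreign compounds were mixed. Of 29 expressed phase II genes 7 were higher in BF at all 4 times (24.1%, beside 10.2% of all genes) and 1 was lower (3.45%, beside 6.51%). Of 27 aldo-keto reductases and short-chain dehydrogenases 7 were higher (25.9%) and 3 lower (11.1%). The 7 include AKR1B7, which the rule had chosen on these same values. SULT2A1, a sulfotransferase of bile acids and steroids, was at 478, 411, 274 and 959 RPKM in BF and at 259, 124, 148 and 614 RPKM in BA at 0, 4, 12 and 24 h. Its mean log2 ratio was 1.03 ± 0.47 (SD over 4 times; adjusted p = 0.319 by limma). SULT2AL1, a similar gene, had ratios of 0.55, 0.18, 2.73 and 1.62, and reads that both share make their separate levels uncertain. Among 27 genes of cytochrome P450 families 1 to 3, 4 were higher at all times (14.8%) and 2 lower (7.41%), near the shares of all genes. CYP2A1, a steroid hydroxylase, had a mean log2 ratio of 0.74 ± 0.15 (SD over 4 times; adjusted p = 0.194 by limma).

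Lipid lists changed direction with time. The 26 genes of cholesterol synthesis had a median log2 ratio of -0.37 at 0 h and 0.27, 0.41 and 0.47 at 4, 12 and 24 h. HMGCS1, an early enzyme of that pathway, was at 833, 214, 287 and 508 RPKM in BF and at 992, 98.2, 199 and 335 RPKM in BA, and Control stayed between 58.0 and 211 RPKM. MVD, another enzyme of the pathway, had log2 ratios of -0.66, 1.07, 0.59 and 0.81. The 28 genes of fatty acid oxidation and ketogenesis were higher in BF before 24 h, with medians of 0.27, 0.77 and 0.36. At 24 h their median was -0.54. All 28 were then lower, beside 3180 of the 8459 genes tested, and 4 of the 28 were at least 2-fold lower. ECH1, a peroxisomal and mitochondrial isomerase, had ratios of 1.24, 1.27, 0.98 and -0.57. EHHADH, a peroxisomal enzyme, had ratios of 0.60, 0.63, 2.31 and -0.77. By limma 0 genes of either list passed the adjusted threshold. An unadjusted limma p was under 0.05 for 3 of 26 cholesterol and 1 of 28 oxidation genes, beside 642 of the 8459 tested. A single direction at all 4 times was held by 1 of 26 genes of the cholesterol list and 0 of 28 of the oxidation list, beside 16.7% of all genes.

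The lists of proliferation genes changed direction between times. Of 40 expressed genes of origin licensing and S phase 0 were higher in BF at all 4 times and 1 was lower (2.5%), and of 34 mitotic genes 0 had a single direction, beside 10.2% higher and 6.51% lower of all genes. The S phase list was lower in BF at 0 h and 24 h (medians -0.36 and -0.87) and higher at 12 h (0.39). At 4 h its median of 0.13 was near the 0.15 of all genes tested. PCNA, the sliding clamp of DNA replication, was at 75.2 RPKM in BF, 353 RPKM in BA and 381 RPKM in Control at 24 h, and between 20.3 and 32.9 RPKM in BF and BA at the earlier times. MCM5, a subunit of the replicative helicase, was already at 11.8 RPKM in BA at 0 h, against 0.34 RPKM in BF and 0.76 RPKM in Control. CCND1, cyclin D1, was at 4.03, 3.58, 6.71 and 17.2 RPKM in BF and at 14.3, 0.83, 10.7 and 19.1 RPKM in BA. CDKN1A, the inhibitor p21, was lower in BF at all 4 times, with log2 ratios of -0.09, -1.52, -0.77 and -1.35 (adjusted p = 0.542 by limma).

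Among the other lists, IL-6 and STAT3 signalling had 4 of 16 lower in BF at all 4 times (25.0%, beside 6.51% of all genes) and 1 higher, with its lowest median at 4 h (-0.41). Ribosomal proteins had 12 of 45 lower (26.7%) and 1 higher, with medians between -0.16 and 0.0. Of 28 interferon response genes 2 were higher and 2 lower (7.14% each, beside 10.2% and 6.51% of all genes). One of the former was IFI47, an interferon-induced GTPase, with a mean log2 ratio of 0.88 ± 0.12 (SD over 4 times; adjusted p = 0.110 by limma). Acute phase proteins had 3 of 26 lower (11.5%) and 0 higher, immediate early genes 3 of 25 lower (12.0%) and 0 higher, and the 16 heat shock chaperones 0 of either.

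**Figure D4:**
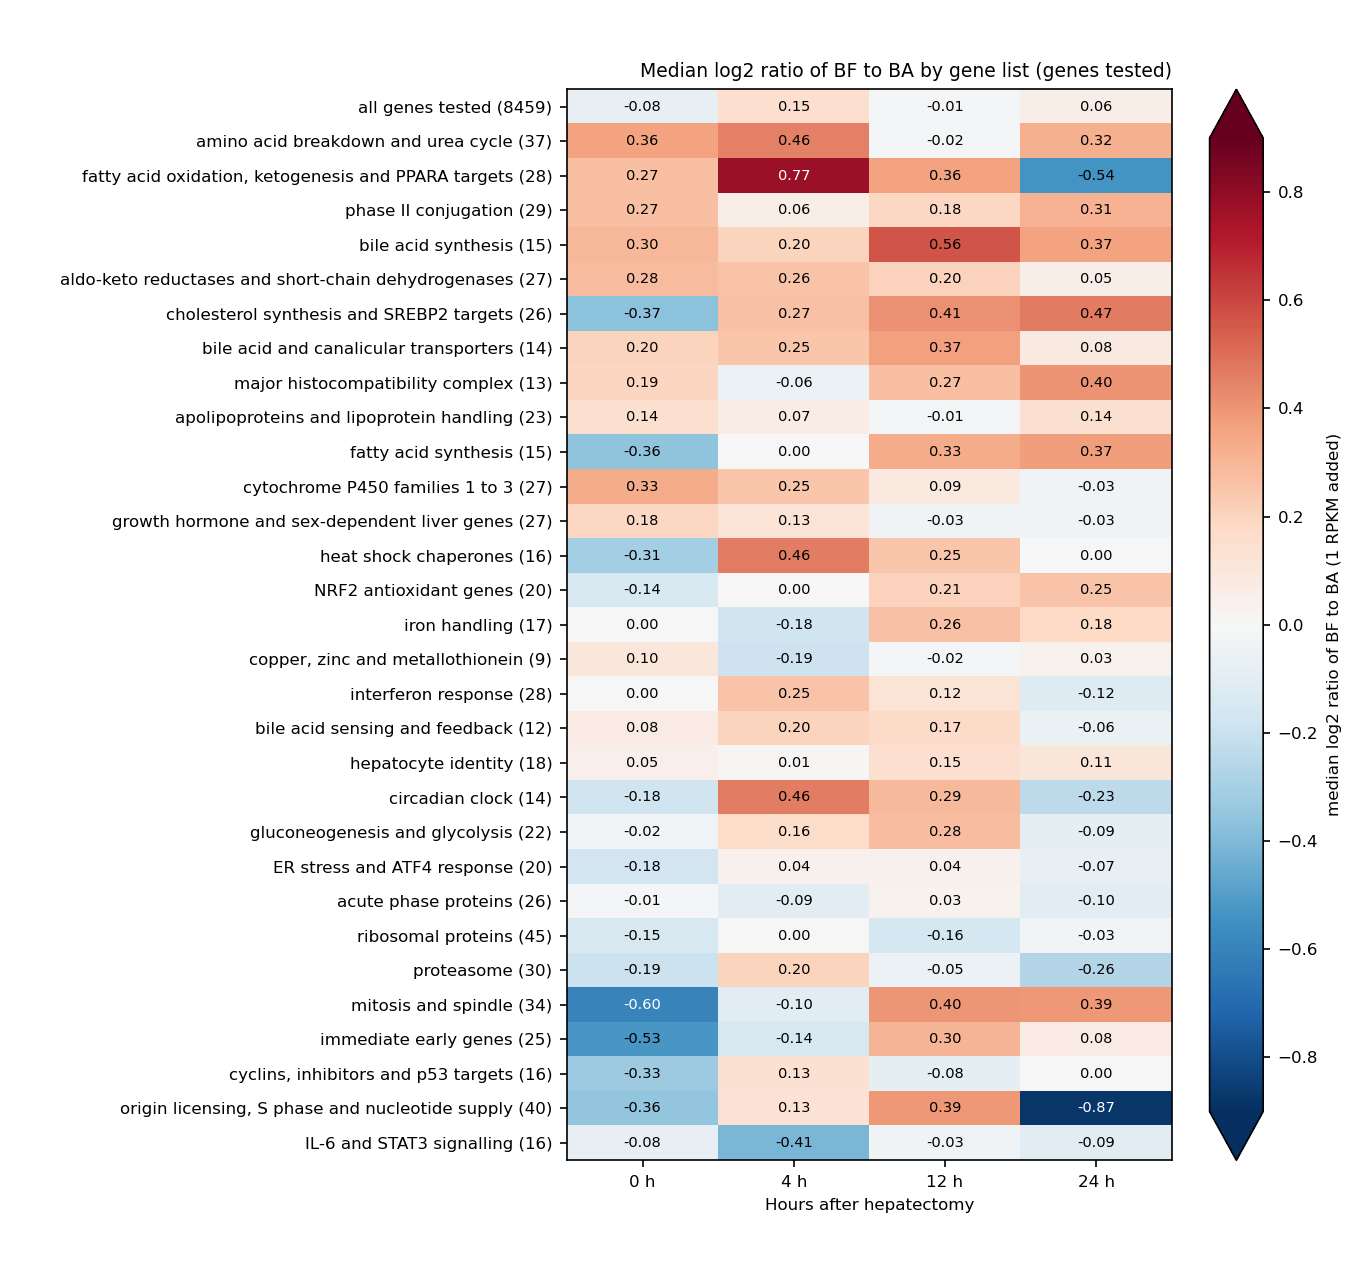
Median log2 ratio of BF to BA (1 RPKM added, colour and number) for the 30 gene lists and all genes tested in rows, with the number of genes tested in brackets, and the 4 times in columns. Bile acid synthesis is above 0 at every time, cholesterol synthesis and mitosis are below 0 at 0 h and above 0 at 24 h, and fatty acid oxidation reaches 0.77 at 4 h and -0.54 at 24 h.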

How the data were processed

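RNA was extracted from whole liver and sequenced by the authors from TruSeq libraries. The deposited table holds RPKM values with 2 decimals for 14692 genes in 12 columns, each combined by the authors from 2 runs, so read counts are not known. The submitters' processing notes name CASAVA, Bowtie 0.12.2 and the builds mm8 and rn4, without a role or annotation. No interval can be given without counts. Of the genes, 1 had no value and 8459 averaged 1 RPKM or more.

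Groups were taken from sample titles. Ratios used log2(RPKM + 1). Differences were tested with limma 3.58.1 in R 4.3.3 (terms group and time, moderated variance with trend) and Benjamini-Hochberg adjustment, after the script was checked on made columns. Tables were handled in Python 3.11.15 with pandas 2.3.3 and numpy 2.4.6. The members, gene lists, markers and motifs were chosen with earlier results of these data known. Named genes were the members, the 3 list members with the largest mean ratio, 6 genes of the study's questions and those nearest the limit. CYP27A1, AKR1D1, AMACR, BAAT, ASNS, CYP2A1, EPHX2 and HAVCR1 were named after their values were seen. Some genes that the rule names are not reported here. Symbols were matched to RefSeq (GRCr8) for 8224 genes. Alternatives changed the pseudocount, the filter, the scaling, the rule, the fit or the times used.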

Additional observations from a re-analysis of the deposited data

Results flagged for a closer look

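With 1 value per group and time, no sample could be compared with others of its group. A pair of gene lists had a BF to BA difference of opposite sign at 0 h and at 24 h, each at least 0.3 away from the median of all genes at that time. For 28 genes of fatty acid oxidation, ketogenesis and PPARA targets the median log2 ratio was 0.27 at 0 h and -0.54 at 24 h, a difference of -0.81. At 24 h all 28 were lower in BF, beside 3180 of the 8459 genes tested, and 4 of the 28 were at least 2-fold lower. For 34 genes of mitosis and the spindle the median was -0.60 at 0 h and 0.39 at 24 h, a difference of 0.99. At 0 h 30 of the 34 were lower in BF, beside 5240 of the 8459 genes tested. At 24 h 20 of the 34 were higher, a share near that of all genes (5245 of 8459). At that time 5 of the 34 were at least 2-fold lower and 0 at least 2-fold higher. The differences between the times were not tested, since each time has 1 column per group.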

How the results depend on the processing

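A pseudocount of 0.1 RPKM gave 7 genes higher and 11 lower by the rule and 0 limma calls in each direction (621 genes at an unadjusted p under 0.05), and 5 RPKM gave 1 lower gene (NPY) and 0 limma calls lower (213 unadjusted). Without a filter on low values limma made 0 calls in each direction (833 genes at an unadjusted p under 0.05). Rescaling every column on its median gene, which moved the median log2 ratio of all genes at 4 h from 0.15 to 0.04, gave 5 genes higher by the rule and 1 limma call higher. A 2-fold difference at all 4 times left 1 gene lower (TNFRSF21), and 1.5-fold at 3 or more gave 31 higher and 24 lower. The limma fit on all 12 columns made 1 call higher (CYP8B1) and 0 lower (260 unadjusted). Leaving out one time pair at a time, with 2-fold at 2 of 3 times, gave 13 to 16 genes higher and 8 to 21 lower by the rule, which is then easier to meet and which the 8 members meet by their choice. The limma calls were 0 to 3 higher and 0 lower in those fits, with 157 to 216 genes lower at an unadjusted p under 0.05. Without the 4 h pair or without the 24 h pair limma called 0 genes, with 520 and 585 genes at an unadjusted p under 0.05. The mean log2 ratio reversed in 3 of 437 combinations of a named gene and an alternative: to 0.067 for PCNA (range over left-out pairs -0.84 to 0.067), 0.19 for CCND1 (-0.78 to 0.19) and 0.17 for BAAT (-0.38 to 0.17). Of 270 list medians under alternatives 266 moved by less than the SD of the list's median over the 4 times.

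The depth of the columns is unknown, so no floor can be given for genes at low RPKM.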

Other observations

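Several genes of fuel metabolism differed most at 4 h. SCD1, which makes monounsaturated fatty acids, was at 4.21 and 17.3 RPKM in BF against 24.1 and 122.8 RPKM in BA at 0 and 4 h, and Control was at 50.4 and 98.7 RPKM. G6PC, which releases free glucose, was at 223.9 RPKM in BF, 29.4 RPKM in BA and 92.5 RPKM in Control at 4 h. PDK4, an inhibitor of pyruvate oxidation, was at 60.4, 7.72 and 167 RPKM in the same columns. Among these 3 genes the limma adjusted p-values were 0.600 to 0.732, since the direction or size changed over time. The BA column at 4 h is the one in which ALB stood apart.

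The metallothioneins MT1A and MT2A, which bind zinc and copper, were higher in BF at 0 h (log2 ratios 0.59 and 0.40) and lower at 12 h (-2.47 and -2.24). MT2A was at 206 RPKM in BF, 979 RPKM in BA and 1663 RPKM in Control at 12 h. HAVCR1, a membrane receptor known from injured kidney, was at 21.3 RPKM in BA at 12 h, 0.15 RPKM in BF and 4.31 RPKM in Control. PRLR, the prolactin receptor, was at 9.84 RPKM in BF and 1.09 RPKM in BA at 24 h. Immediate early genes JUN and BTG2 were lower in BF at 0 and 4 h (log2 ratios -1.61 and -1.18 for JUN, -1.18 and -2.13 for BTG2). Both were higher in BF at 12 h (0.47 and 0.17) and lower at 24 h (-0.75 and -0.34), with limma adjusted p-values of 0.651 and 0.642. At 0 and 4 h JUN was at 7.70 and 14.8 RPKM in BF, 25.5 and 34.7 RPKM in BA and 30.1 and 27.5 RPKM in Control. BTG2 was at 7.53 and 48.8 RPKM in BF, 18.3 and 217 RPKM in BA and 5.89 and 63.8 RPKM in Control.

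RPL30 was at 0.52, 26.5, 33.1 and 42.2 RPKM in BF, at 0.18, 0.44, 34.6 and 0.38 RPKM in BA and at 13.1, 0.35, 0.87 and 21.0 RPKM in Control at 0, 4, 12 and 24 h, and reads shared with copies of this ribosomal gene make it uncertain. EPHX2, an epoxide hydrolase, was at 33.2 and 36.3 RPKM in BF against 2.85 and 4.55 RPKM in BA at 4 and 24 h, and at 16.8 against 16.4 RPKM at 12 h. DHRS7, a short-chain dehydrogenase, was at 196, 80.2, 22.1 and 4.47 RPKM in BF at 0, 4, 12 and 24 h. In BA it was at 161.5, 60.1, 153 and 110.4 RPKM, and in Control at 219, 179, 139 and 80.9 RPKM.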
